A study of Homo sapiens with 6 samples.

Results

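The genes described here code for proteins of the spliceosome in HL60, an established human promyelocytic leukemia cell line, and they are compared between akirin2 KO and WT cells by RNA sequencing. Members were the listed genes whose names follow the patterns of the small nuclear ribonucleoprotein (snRNP) proteins SNRP and SNRNP, the SF3A and SF3B subunits, the PRPF factors, the U2AF subunits and the SRSF (SR) proteins, with pseudogene copies left out. These rules found 57 of the 17499 listed genes, namely 19 snRNP, 9 SF3, 13 PRPF, 4 U2AF and 12 SR genes. The KO cells were a pool edited with a CRISPR-Cas9 ribonucleoprotein against akirin2 and used without clonal expansion, which the labels also call an AKR2 knock down. The WT cells were transfected with the SpCas9 nuclease alone, and both groups were grown in RPMI 1640 with fetal bovine serum. There were 3 libraries per group (KO1 to KO3 and WT1 to WT3), all from 1 edited and 1 control pool. The study calls them biological replicates. Whether each had its own culture is not stated, and p-values measure only the spread between these libraries, which may be technical.

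The spliceosome removes introns from pre-mRNA and is built from the U1, U2, U4, U5 and U6 snRNPs. In U1, U2, U4 and U5, and in the U11 and U12 particles of the minor spliceosome, a ring of Sm proteins is assembled on the snRNA, and U6 carries the related LSM ring. U1 recognizes the 5′ splice site, U2AF and the U2 snRNP with its SF3A and SF3B complexes recognize the 3′ part of the intron and the branch point, and the U4/U6.U5 tri-snRNP with its PRPF proteins brings in the catalytic core. SR proteins bind exons through RNA recognition motifs and recruit these particles through domains rich in arginine and serine. Many of these genes are needed in every dividing cell, and mutations of SF3B1, SRSF2 and U2AF1 are known from myeloid neoplasms.

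The values are normalized counts, that is, the reads of a gene after division by the size factor of its library. The reads on listed genes were 36096459 to 47607520 per library in KO and 41419318 to 52244122 in WT. AKIRIN2, the targeted gene, had 1613, 1731 and 1651 normalized counts in KO1 to KO3 and 2378, 2450 and 2420 in WT1 to WT3. Its RNA was lower in each KO library, but was still present, with a log2foldchange (KO/WT) of −0.54 (adjusted p = 1.3e-08 from limma, standard error 0.049). All 9 markers of promyelocytes were listed, with a summed count of 1050000 to 1080000 in KO and 362000 to 384000 in WT, and 8 of them rose. Of 7 monocyte and macrophage markers 6 were listed, summing to 244 to 253 in KO and 1010 to 1160 in WT. Most of that sum in WT was CD14, with a mean of 984 in WT and 118 in KO, and of the 6 genes 2 fell and 2 rose, MARCO and CSF1R, the latter at 1.44. None of 7 erythroid markers was listed, and 2 of 6 T and NK lymphocyte markers summed to 1240 to 1340 in KO and 3030 to 3620 in WT. Most of the T and NK sum was NKG7, with a mean of 1285 in KO and 3108 in WT. Of 5 B lymphocyte markers 2 were listed and summed to 238 to 253 in KO and 157 to 177 in WT. WT1 stood apart in the summed count of the 6 listed of 8 epithelial and fibroblast markers. It reached 5590 there and lay between 349 and 901 in the other 5 libraries. Most of the WT1 sum was FN1, with 4609 in WT1 and 115 to 680 in the other 5. The part of these differences in the results was not tested, and in bulk samples fewer cells of a type and less RNA per cell cannot be told apart.

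In akirin2 KO cells, most snRNP, PRPF and SR genes were more abundant than in WT cells, while the SF3 genes as a group were not. All 57 members were tested with limma, and at an adjusted p under 0.05 there were 36 higher in KO, 8 lower and 13 not called. Much of the transcriptome differed between KO and WT cells. These counts are to be read against the 60.6% of all 17425 tested genes that were called, 30.3% higher and 30.3% lower. Of the members 77.2% were called, 63.2% higher and 14.0% lower. Their median log2foldchange was 0.24, beside −0.0066 over all genes tested. In 39 members each KO library lay above each WT library and in 9 below, while the groups overlapped in 9. Over all genes the groups did not overlap in 65.2%, with KO above WT in 32.7% and below in 32.5%. The changes were mostly small. Only SNRPN and SF3A2 were called with a log2foldchange above 1 in size, beside 14.8% of all genes tested.

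**Figure D1:**
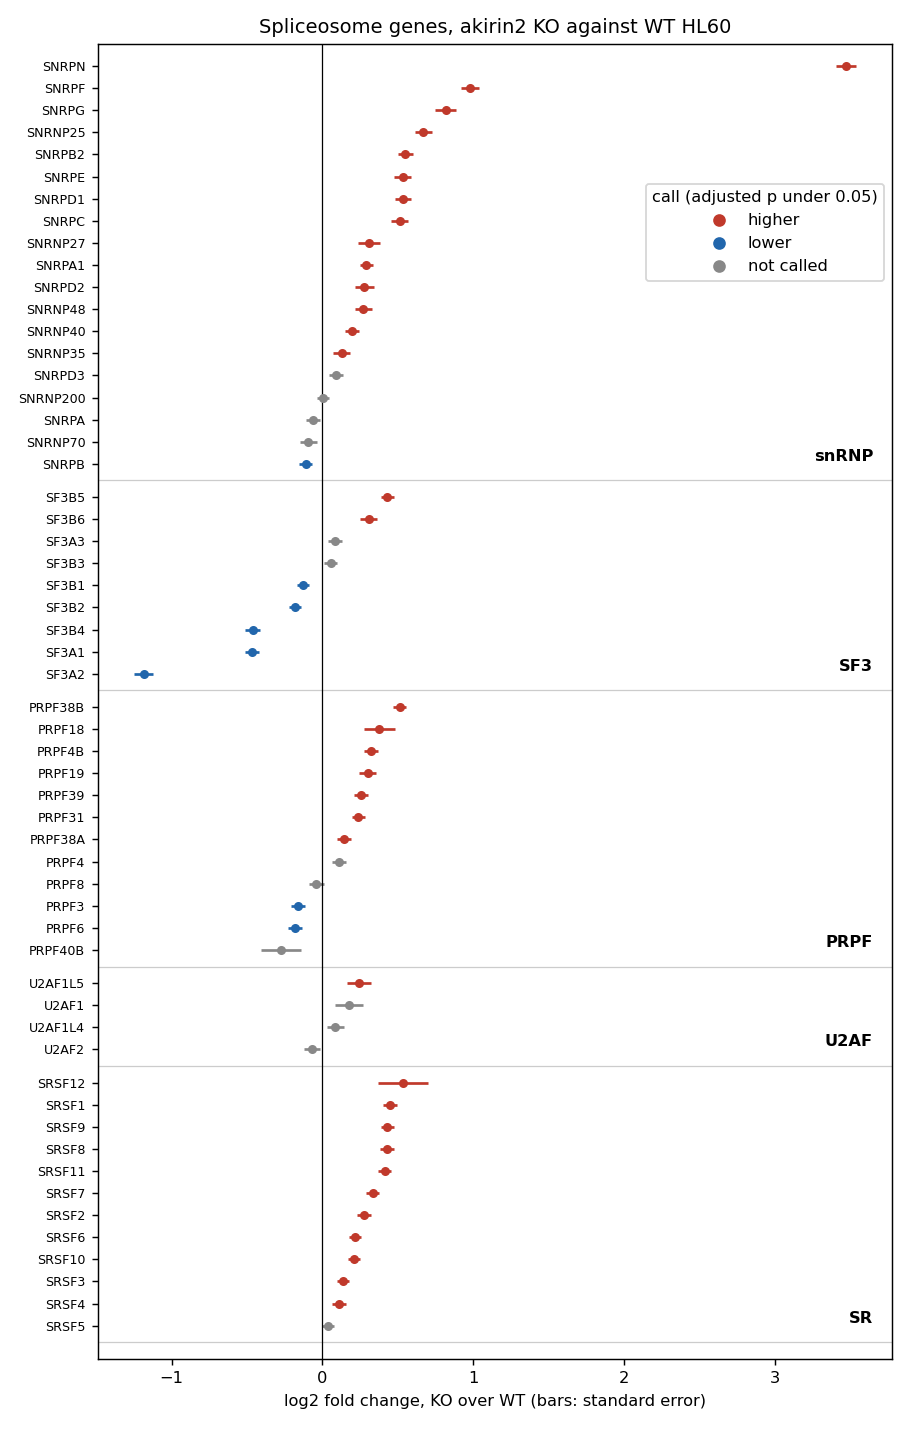
Log2foldchange (KO/WT) of 56 of the 57 spliceosome genes on log2(normalized count + 1), ordered within each family, with bars for the standard error over 3 KO and 3 WT libraries. Red points were called higher, blue points lower and grey points were not called in limma. SNRPN lies far to the right at 3.47 and SF3A2 to the left at −1.18, and no SR gene lies below 0.

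Summed over their members, the SR, snRNP and PRPF families were higher in KO and the SF3 family was lower. The 12 SR genes together held 141850 to 144325 normalized counts in the KO libraries and 116055 to 120915 in the WT libraries, a ratio of 1.21. The 19 snRNP genes held 151173 to 154423 in KO and 123637 to 136526 in WT, a ratio of 1.17. The 13 PRPF genes held 69479 to 70396 in KO and 59807 to 62463 in WT, a ratio of 1.14. In each of these 3 families the lowest KO library was above the highest WT library. The 9 SF3 genes had 69632 to 70731 in KO and 78125 to 82174 in WT, a ratio of 0.875. The 4 U2AF genes held 13497 to 14612 in KO and 13913 to 15707 in WT, and the groups overlapped. The sum over all genes tested had a ratio of 0.961.

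**Figure D2:**
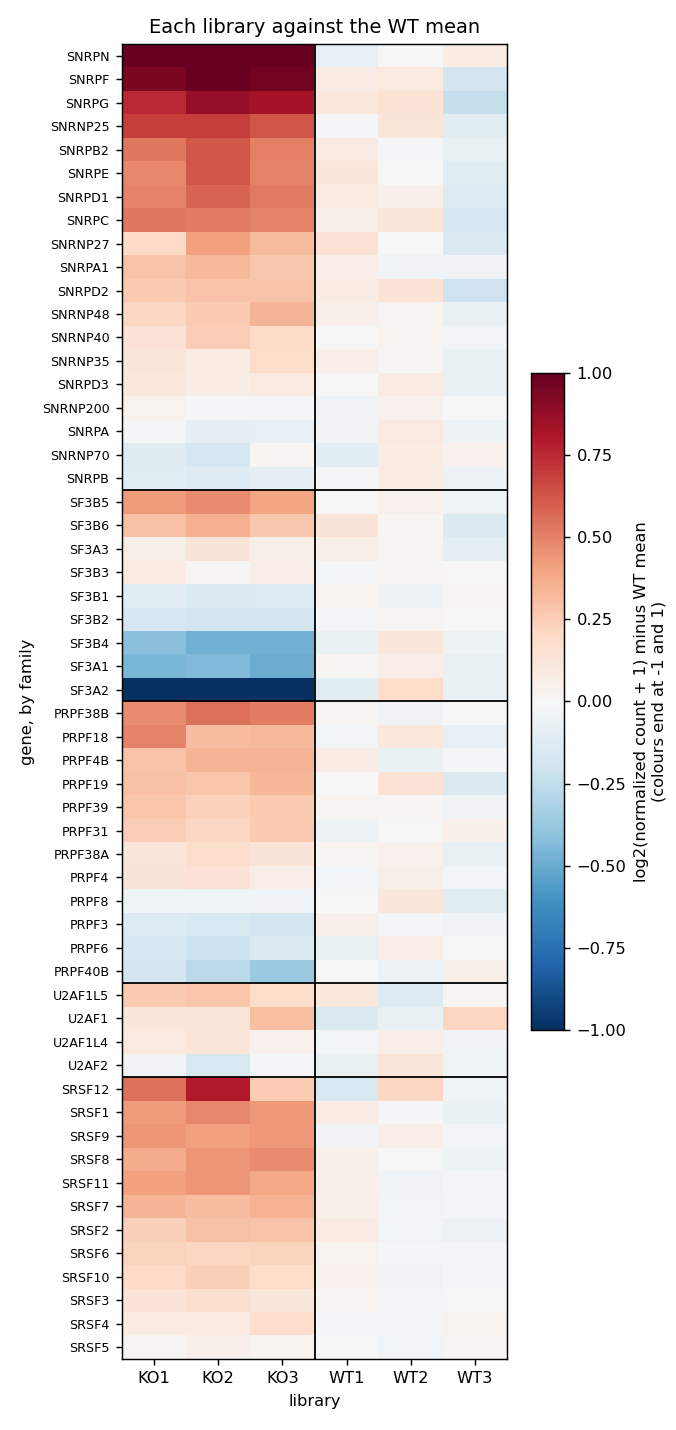
Log2(normalized count + 1) of the same 56 genes in each of the 6 libraries, minus the mean of the 3 WT libraries, with genes ordered as in the plot of fold changes and families parted by black lines. Colours end at −1 and 1, which SNRPN and SF3A2 pass in all 3 KO libraries. The SR rows are red in the KO libraries, fading to near white in SRSF5, and in SNRPF, SNRPG and SNRPD2 WT3 is the bluest WT library.

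The Sm core held the member with the largest change. SNRPN codes for SmN, a relative of the SmB protein that can take its place in the ring, and it is best known from brain and as an imprinted gene of the Prader-Willi region. It had 2847, 2599 and 3008 normalized counts in KO1 to KO3, against 238, 254 and 267 in WT1 to WT3. The groups were far apart, and the libraries of each group lay close to each other. KO averaged 2818 ± 206 and WT 253 ± 14.2 (mean ± SD, n = 3 each), with a ratio of 11.1 and a log2foldchange of 3.47 (standard error 0.068, adjusted p = 2.07e-18 from limma). SNRPB, which codes for SmB and SmB′, had 13791, 13560 and 13850 in KO and 14686, 15612 and 14216 in WT. Each KO library was thus slightly below each WT library, and the log2foldchange was −0.11 (adjusted p = 0.036 from limma, in a range of up to 0.2 over its alternatives). That call did not hold with edgeR, with equal library totals, or without any single library other than WT3, and the adjusted p without 1 library reached 0.136 when WT2 was left out.

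Taken as a pair, SNRPN made up 17.1%, 16.1% and 17.8% of the summed SNRPB and SNRPN counts in KO1 to KO3, and 1.6%, 1.6% and 1.84% in WT1 to WT3. The summed counts of both genes were 16550 ± 357 in KO and 15090 ± 706 in WT (mean ± SD, n = 3 each), so that SNRPB gave most of the summed RNA of this pair in every library. The annotated transcripts of the pair share 0 stretches of 50 bases, while 25.8% of the 50-base stretches of SNRPN occur in other genes, most of them (18.4%) in SNURF. Per kilobase of exon, the level of SNRPN was 825 in KO and 74.1 in WT, and that of SNRPB was 10750 in KO and 11610 in WT.

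SNRPN lies on chromosome 15 (GRCh38, 24823637 to 24978723, plus strand) in a unit that also gives the long noncoding RNA SNHG14, a host of small nucleolar RNAs. All 8 other listed genes within 1000000 bases of SNRPN were called, beside 60.6% of all genes tested. They were looked up after the values of SNRPN were seen. SNHG14 had 1837, 1867 and 1992 normalized counts in KO and 140, 129 and 192 in WT, a log2foldchange of 3.64 (standard error 0.11, adjusted p = 8.3e-16 from limma). PWAR6, a noncoding RNA read in the same direction, had 207, 203 and 193 in KO and 12.2, 15.7 and 17.6 in WT, with a log2foldchange of 3.66. Thus the genes downstream on the plus strand were also high in each KO library and low in each WT library. SNURF, which codes for a small protein at the start of the SNRPN transcript and shares 23.8% of the SNRPN exon bases, had 39.3, 46.2 and 58.8 in KO and 0.939, 4.5 and 3.35 in WT. The antisense neighbour UBE3A, a ubiquitin ligase, had 5946, 6320 and 5952 in KO and 5289, 4851 and 4803 in WT, a log2foldchange of only 0.29 (adjusted p = 3.2e-05 from limma). RPL5P1, a processed pseudogene inside the annotated span of SNRPN on the minus strand, went down at −1.49. AC124312.2, a noncoding RNA gene with few reads that is also on the minus strand, rose at 3.61. It had 61.2, 56.2 and 28.8 in KO and 4.69, 0 and 9.2 in WT.

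**Figure D3:**
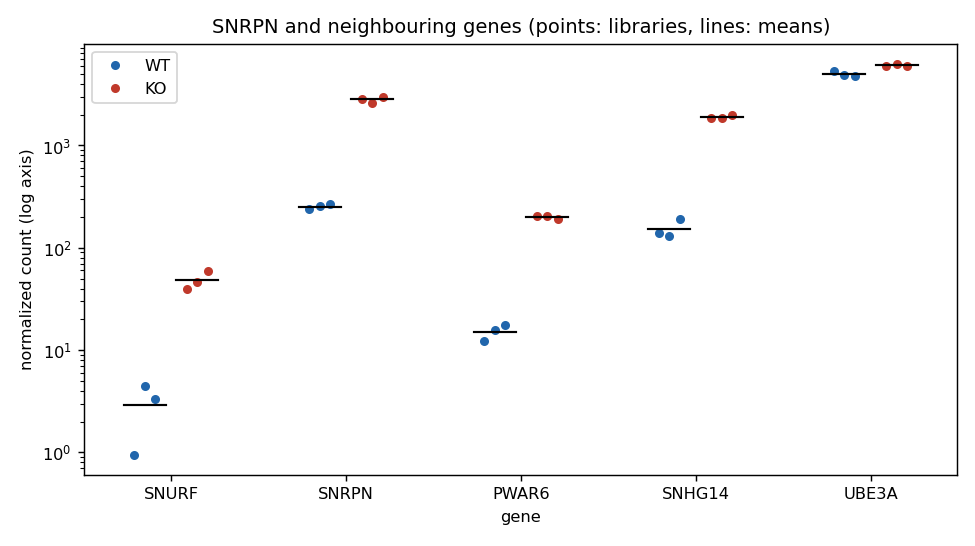
Normalized counts (log axis) of SNRPN and of 4 genes around it on chromosome 15 in 3 WT (blue) and 3 KO (red) libraries, with points for libraries and black lines for group means. SNURF, SNRPN, PWAR6 and SNHG14 differ between the group means by ratios of 11.1 to 16.4, and UBE3A by a ratio of 1.22.

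The start of this unit is shown because SNRPN was the member that changed most. The RefSeq window (GRCh38.p14, chr15:24954737-24955036, plus strand) runs from 250 bases before to 50 bases after the start site that lies closest to the annotated start of SNURF, 1 of 4 windows that RefSeq gives SNRPN. Its CG dinucleotides are in capitals, since this promoter is the imprinting centre that is methylated on the maternal chromosome. It holds 18 of them in 300 bases, and no DNA methylation was measured in these libraries.
SNRPN: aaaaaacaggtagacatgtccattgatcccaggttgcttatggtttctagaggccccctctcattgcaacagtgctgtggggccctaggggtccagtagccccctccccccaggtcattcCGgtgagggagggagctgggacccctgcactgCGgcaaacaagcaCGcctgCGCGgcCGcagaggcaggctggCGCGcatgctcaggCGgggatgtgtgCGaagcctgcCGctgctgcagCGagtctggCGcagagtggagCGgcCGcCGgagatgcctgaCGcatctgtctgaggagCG

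Of the other Sm genes, those of the small ring proteins F and G rose most. SNRPF, which codes for SmF, had 10881, 11635 and 11043 normalized counts in KO and 5985, 6074 and 4995 in WT, a ratio of 1.97 and a log2foldchange of 0.98 (standard error 0.060, adjusted p = 3.8e-11 from limma). SNRPG, which codes for SmG, had 8987, 9733 and 9458 in KO and 5710, 5835 and 4522 in WT, a log2foldchange of 0.82 (adjusted p = 5.2e-09 from limma). In both genes WT3 was the lowest library and every KO library was above every WT library. SNRPE (SmE) had 3467 to 3813 in KO and 2290 to 2690 in WT, and SNRPD1 (SmD1) had 9411 to 9976 in KO and 6064 to 7076 in WT, with a log2foldchange of 0.53 for each. SNRPD2 (SmD2) was the most abundant Sm gene per kilobase of exon in KO, at 12290. Its normalized counts were 19592, 19838 and 19870 in KO and 17177, 17879 and 14096 in WT, and the log2foldchange was 0.28 (adjusted p = 0.00087 from limma). Its WT3 library again lay below the others. The call of SNRPD2 was lost with no variance trend (adjusted p = 0.0611 from limma) and with an ordinary linear model (adjusted p = 0.078). SNRPD3 (SmD3), the partner of SmB in the ring, had 4382, 4294 and 4368 in KO and 4078, 4311 and 3871 in WT. The groups overlapped in this gene, and it did not pass the test (log2foldchange 0.09, adjusted p = 0.10 from limma), although it did with TMM scaling, equal library totals and edgeR, and without WT2 (adjusted p = 0.0214 from limma). Summed over the 8 Sm genes the ratio of KO to WT was 1.34, and without SNRPN it was 1.29.

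**Figure D4:**
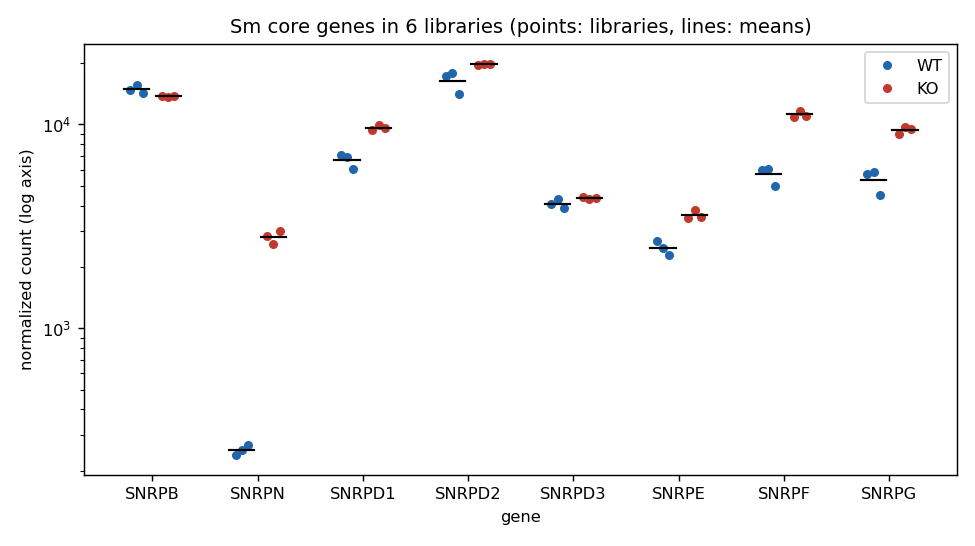
Normalized counts (log axis) of the 8 Sm genes in 3 WT (blue) and 3 KO (red) libraries, with points for libraries and black lines for group means. SNRPN shows the widest gap, SNRPF and SNRPG follow with ratios of 1.97 and 1.75, and SNRPB has its KO libraries just below its WT libraries.

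The promoter of SNRPF is shown because SNRPF rose most after SNRPN. The RefSeq window (GRCh38.p14, chr12:95858702-95859001, plus strand) has a pair of CCAAT boxes, in capitals, which are sites of the kind that the factor NF-Y binds. CCAAT, on either strand, occurred in the windows of 18 of 48 members with a RefSeq entry (37.5%), and in those of 43.2% of 9879 protein-coding genes tested. It was found in 15 of 29 members called higher, in 0 of 7 called lower and in 3 of 12 not called. This motif, too, was chosen after values were seen.
SNRPF: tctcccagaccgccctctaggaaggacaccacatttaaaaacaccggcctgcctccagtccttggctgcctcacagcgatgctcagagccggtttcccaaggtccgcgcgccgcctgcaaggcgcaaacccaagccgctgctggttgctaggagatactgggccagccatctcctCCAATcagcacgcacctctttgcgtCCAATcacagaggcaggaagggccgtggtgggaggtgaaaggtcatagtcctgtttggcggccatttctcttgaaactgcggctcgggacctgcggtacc

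Of the 3 genes for proteins particular to U1, only SNRPC rose. SNRPC, which codes for a zinc finger protein of 5′ splice site recognition, had 5353, 5285 and 5242 normalized counts in KO and 3836, 4031 and 3304 in WT, a log2foldchange of 0.51 (adjusted p = 2.6e-07 from limma). SNRNP70, which codes for the U1-70K protein and serves in the study as a negative control protein of interaction assays, had 27636, 26585 and 30388 in KO and 27729, 31564 and 31015 in WT. The groups overlapped, and the log2foldchange was −0.09 (standard error 0.056, adjusted p = 0.16 from limma). A two-sided exact permutation test gave p = 0.2 for the 6 libraries, where 3 against 3 cannot go below 0.1. It was called lower when WT1 was left out (adjusted p = 0.027 from limma) and when both WT1 and KO3 were left out (adjusted p = 0.017 from limma). SNRPA, whose protein binds a stem loop of U1 snRNA, had 14320, 13589 and 13717 in KO and 14117, 15440 and 13988 in WT, a log2foldchange of −0.06 (adjusted p = 0.24 from limma). PRPF39, a human relative of a U1-associated factor of yeast, had 3012, 2914 and 2979 in KO and 2530, 2503 and 2422 in WT, with no overlap and a log2foldchange of 0.26. PRPF40B, a gene with few reads, had 119, 112 and 104 in KO and 135, 130 and 141 in WT, which did not pass the test (log2foldchange −0.28, adjusted p = 0.082 from limma). It overlaps FMNL3 on the other strand in 28.0% of its exon bases, and FMNL3 itself fell by 2.28 on the log2 scale. It also overlaps FAM186B on the other strand in 20.7%, which was higher at 0.95 (adjusted p = 0.042 from limma).

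The members of the U2 snRNP were split, with 4 of 11 higher (36.4%), 5 lower (45.5%) and 2 not called. Over all genes tested 30.3% were higher and 30.3% lower. Of 12 other genes of the 17S U2 snRNP, given below, 9 rose and 1 fell. RNA of the genes whose proteins bind U2 snRNA itself rose. SNRPB2, which codes for U2-B″, had 6072, 6505 and 5976 normalized counts in KO and 4468, 4186 and 4016 in WT, a log2foldchange of 0.55 (adjusted p = 9.9e-09 from limma). SNRPA1, which codes for its partner U2-A′, had 4669 to 4861 in KO and 3784 to 4074 in WT, a log2foldchange of 0.29. All 5 lower members were SF3 subunits.

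SF3A2, the SF3a66 subunit of the SF3A complex, fell most of all 57 members. It had 5296, 4728 and 5247 normalized counts in KO and 10686, 13120 and 11009 in WT, so that every KO library was below the lowest WT library by a wide gap. KO averaged 5091 ± 315 and WT 11605 ± 1322 (mean ± SD, n = 3 each), with a ratio of 0.439 and a log2foldchange of −1.18 (standard error 0.063, adjusted p = 5.9e-12 from limma). It lies on chromosome 19 (GRCh38, 2236504 to 2248679, plus strand) and overlaps PLEKHJ1 on the minus strand in 12.7% of its exon bases. PLEKHJ1 moved little, with a log2foldchange of 0.12. SF3A1, the SF3a120 subunit, is listed by the study among proteins that interact with Akirin2. Its values were 3257, 3301 and 3172 in KO and 4512, 4696 and 4245 in WT, again without overlap, and the log2foldchange was −0.47 (standard error 0.047, adjusted p = 5.7e-08 from limma). SF3A3, the SF3a60 subunit, had 8090, 8478 and 8065 in KO and 8098, 7927 and 7273 in WT, and it did not pass the test (log2foldchange 0.08, adjusted p = 0.14 from limma). The 3 subunits of this complex therefore ranged from −1.18 to 0.08, and only SF3A1 and SF3A2 fell. Per kilobase of exon, the level of SF3A2 was 3703 in WT against 708.5 for SF3A1 and 1638 for SF3A3, and it was 1624, 512.5 and 1732 in KO.

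The 6 genes named SF3B also differed among themselves. PHF5A, a further subunit of this complex without an SF3B name, was not a member and was counted with the other U2 snRNP genes. It was higher, with a log2foldchange of 0.38 (adjusted p = 5.6e-06 from limma). SF3B4, the SF3b49 subunit that contacts RNA near the branch point, had 4118, 3937 and 3953 normalized counts in KO and 5266, 5961 and 5322 in WT, a log2foldchange of −0.46 (adjusted p = 1.5e-07 from limma). SF3B2, the SF3b145 subunit, had 13551, 13453 and 13485 in KO and 15104, 15606 and 15265 in WT, a smaller difference of −0.18 with no overlap. SF3B1, the SF3b155 scaffold that surrounds the branch helix, had 18432, 17883 and 17997 in KO and 20283, 19117 and 19971 in WT. Its log2foldchange was −0.13 (adjusted p = 0.013 from limma), and the call was lost without KO2, KO3 or WT1 and with equal library totals, with adjusted p from limma of 0.0537 to 0.0623 in the single omissions. The small subunits went up. SF3B5 (SF3b10) had 4388, 4548 and 4295 in KO and 3274, 3361 and 3176 in WT, a log2foldchange of 0.43 (adjusted p = 8.5e-08 from limma). SF3B6, the p14 subunit at the branch point adenosine, had 4634, 4838 and 4542 in KO and 4123, 3826 and 3411 in WT, a log2foldchange of 0.31. SF3B3, the SF3b130 subunit, had 8565 to 8964 in KO and 8407 to 8561 in WT, and it was not called (log2foldchange 0.05, adjusted p = 0.26 from limma).

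The promoters of SF3A2 and SF3A1 are shown because these genes fell most, and because both windows hold the 7 bases CCGGAAG, in capitals, the core of an ETS-type site. It was found, on either strand, in 20 of 48 members (41.7%) and in 22.6% of the protein-coding genes tested. Among the families it occurred in 6 of 8 SF3 genes, 9 of 17 snRNP genes, 2 of 9 PRPF genes, 1 of 3 U2AF genes and 2 of 11 SR genes. By call it was found in 10 of 29 higher members, 6 of 7 lower members and 4 of 12 that were not called. The motif was chosen after values were seen. SF3 genes made up 5 of the 8 lower members, so call and family cannot be told apart here. The E-box CACGTG occurred in 2 of 48 members, SF3B1 and SNRNP48, beside 12.7% of the protein-coding genes. The SF3A2 window lies at chr19:2236574-2236873 on the plus strand and the SF3A1 window at chr22:30356845-30357144 on the minus strand (RefSeq, GRCh38.p14). These matches describe letters in the windows and do not show that a factor bound there.
SF3A2: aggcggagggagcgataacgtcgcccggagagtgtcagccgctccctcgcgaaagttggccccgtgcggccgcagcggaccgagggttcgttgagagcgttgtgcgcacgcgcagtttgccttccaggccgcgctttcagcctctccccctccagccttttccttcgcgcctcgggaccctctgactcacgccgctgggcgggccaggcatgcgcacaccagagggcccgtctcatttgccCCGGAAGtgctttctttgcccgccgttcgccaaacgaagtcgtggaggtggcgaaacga
SF3A1: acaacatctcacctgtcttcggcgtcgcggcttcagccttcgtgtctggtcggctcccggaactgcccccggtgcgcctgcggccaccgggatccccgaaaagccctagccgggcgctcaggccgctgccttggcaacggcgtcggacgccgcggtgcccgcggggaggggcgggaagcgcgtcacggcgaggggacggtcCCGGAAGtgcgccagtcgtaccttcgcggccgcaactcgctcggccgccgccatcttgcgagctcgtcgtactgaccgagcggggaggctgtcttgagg

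The U2AF genes, whose proteins form the heterodimer that reads the polypyrimidine tract and the AG at the end of the intron, gave 1 call among 4 genes. U2AF2, the large subunit, had 12416, 11407 and 12557 normalized counts in KO and 12068, 13834 and 12327 in WT, with overlapping groups and a log2foldchange of −0.07 (adjusted p = 0.26 from limma). U2AF1L4, a paralog of the small subunit, had 1147, 1166 and 1105 in KO and 1050, 1125 and 1047 in WT, which did not pass the test. U2AF1 and U2AF1L5 share 94.3% of their 50-base stretches, so that reads of either gene can be assigned to the other or lost. U2AF1L5 alone was called (0.24, adjusted p = 0.016 from limma), a call that was lost without KO1, KO2 or WT2, where the adjusted p reached 0.0819, while U2AF1 was called only without WT3 (adjusted p = 0.0114) and with the length trend removed. The summed counts of both copies were 916, 924 and 951 in KO and 795, 749 and 876 in WT, a ratio of 1.15, and each KO sum was above each WT sum.

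In the tri-snRNP the members were spread around 0. PRPF31, which bridges U4 and U6 by binding the U4 5′ stem loop, had 5251, 5121 and 5333 normalized counts in KO and 4276, 4441 and 4608 in WT, a log2foldchange of 0.24 (adjusted p = 0.00011 from limma). PRPF3, another U4/U6 protein, was lower, with 2876, 2839 and 2764 in KO and 3274, 3124 and 3092 in WT, and its log2foldchange was −0.16 (adjusted p = 0.0046 from limma, and 0.104 without WT1 and KO3). That of its partner PRPF4 was 0.11 and missed the threshold (adjusted p = 0.053 from limma), which it passed without WT2 (adjusted p = 0.0246). PRPF6, the bridge between U5 and U4/U6, had 9344, 9122 and 9555 in KO and 10076, 11074 and 10623 in WT, a log2foldchange of −0.18 (adjusted p = 0.0017 from limma). The large U5 proteins lay closest to 0. PRPF8, at the catalytic centre, had 4643, 4622 and 4653 in KO and 4776, 5163 and 4405 in WT, a log2foldchange of −0.04 (adjusted p = 0.51 from limma). SNRNP200, the Brr2 helicase that unwinds U4 from U6, had 8421, 8157 and 8091 in KO and 8001, 8436 and 8185 in WT, a log2foldchange of 0.0029 (standard error 0.042, adjusted p = 0.96 from limma). SNRNP40, a U5 protein of WD40 repeats, and SNRNP27, a small tri-snRNP protein, rose by log2foldchanges of 0.20 and 0.31.

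The 5 PRPF genes placed here as acting around activation of the spliceosome or in its second step all rose. This grouping was made after values were seen, and PRPF8 and PRPF6 were placed with the tri-snRNP. PRPF38B, related to a factor of the precatalytic B complex, had 12837, 13582 and 13200 normalized counts in KO and 9440, 9053 and 9287 in WT, which was the largest rise of the PRPF genes (log2foldchange 0.51, standard error 0.042, adjusted p = 2.8e-09 from limma). PRPF18, a factor of the second step, was low, with 309, 271 and 274 in KO and 215, 235 and 207 in WT, a log2foldchange of 0.38. It shares 37.1% of its 50-base stretches with the readthrough gene AL157392.5. PRPF4B, a kinase of PRPF proteins, had 5430 to 5661 in KO and 4250 to 4725 in WT. PRPF19, the ubiquitin ligase at the core of the Prp19 complex (NTC), had 6849 to 7101 in KO and 5122 to 6247 in WT. Their log2foldchanges were 0.32 and 0.30, and that of PRPF38A, the B complex protein itself, was 0.14, a call that was lost without KO2 (adjusted p = 0.0553 from limma). In all 5 each KO library lay above each WT library, beside 32.7% of all genes tested.

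The 3 members of the U11/U12 di-snRNP, which reads the rare introns of the minor spliceosome, also rose. Over all genes tested 30.3% were called higher. Of 9 other genes of the minor spliceosome, given below, 4 rose and 2 fell. SNRNP25 had 2357, 2351 and 2255 normalized counts in KO and 1442, 1587 and 1357 in WT, a log2foldchange of 0.67 (adjusted p = 5.5e-09 from limma, standard error 0.057), the largest of any snRNP gene after the Sm genes SNRPN, SNRPF and SNRPG. SNRNP48, which contacts the 5′ splice site of these introns, had 1963 to 2153 in KO and 1608 to 1755 in WT. SNRNP35, the counterpart of U1-70K, had 1676, 1623 and 1754 in KO and 1611, 1550 and 1465 in WT, and its call was marginal (log2foldchange 0.13, adjusted p = 0.049 from limma) and was lost with DESeq2 and without KO1, KO3, WT2 or WT3, where the adjusted p reached 0.208.

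The SR genes shared 1 direction. In all 12 the lowest KO library was above the highest WT library, beside 32.7% of all genes tested. Of the 12, 11 were called higher, beside 30.3% of all genes tested, with SRSF5 as the exception. SRSF1, the founding SR protein ASF/SF2, had 14363, 14980 and 14485 normalized counts in KO and 11270, 10628 and 10250 in WT, a log2foldchange of 0.45 (standard error 0.044, adjusted p = 4.6e-08 from limma). It shares 50.8% of its 50-base stretches with AC015813.2, a gene model on the same strand. SRSF11, an SR protein known to bind U2AF, was the most abundant in counts, with 29655, 30357 and 29117 in KO and 23084, 21840 and 22073 in WT, a log2foldchange of 0.41. SRSF3, the smallest SR protein and an adaptor of mRNA export, had 22927, 23352 and 22639 in KO and 21206, 20583 and 20867 in WT, a modest log2foldchange of 0.14 (adjusted p = 0.0072 from limma). Between these lay SRSF9 and SRSF8 at 0.43 each, SRSF7, also an export adaptor, at 0.33, and SRSF2 (SC35) at 0.27. SRSF2 shares 36.7% of its exon bases with MFSD11 on the other strand, and MFSD11 fell by 0.51 on the log2 scale. SRSF9 shares 46.2% with GATC, which rose by 0.26. The remaining ones were SRSF6 at 0.22, SRSF10, a factor known as a splicing repressor after heat shock, at 0.21, and SRSF4 at 0.11. The call of SRSF4 was lost without KO1, KO3, WT1 or WT2, with an adjusted p of up to 0.222.

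Both ends of the SR range need care. SRSF12 had the largest log2foldchange of the family, 0.53 (standard error 0.16, adjusted p = 0.0088 from limma), but few reads, with 133, 158 and 108 normalized counts in KO and 80.7, 105 and 87.8 in WT, and its call was lost without KO2 (adjusted p = 0.0686 from limma). SRSF5 had 7020, 7123 and 7055 in KO and 6909, 6781 and 6989 in WT, and with a log2foldchange of 0.04 it did not pass the test (adjusted p = 0.46 from limma). Per kilobase of exon, SRSF2 had the highest level of the SR genes in KO, 5574, and SRSF12 the lowest, 29.25.

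The members that rose had transcripts poorer in GC than those that fell. The GC content of the longest transcript had a median of 40.8% (35.4% to 60.3%) in the 36 higher members, 53.0% (41.0% to 66.6%) in the 8 lower members and 52.2% (40.4% to 63.7%) in the 13 that were not called. Over all genes tested the medians were 46.0% in those called higher and 51.6% in those called lower. Across the 57 members, which are genes of the same 6 libraries and no independent replicates, Pearson's r between GC content and log2foldchange was −0.293 and Spearman's rho −0.473. Without SNRPN they were −0.547 and −0.505 over 56 members, beside −0.172 and −0.190 over 17343 genes. The families differed in the same measure, and SF3A2, which fell most, was at 66.6% the richest in GC of all members. SNRNP25 went against this order, with 60.3% and a log2foldchange of 0.67. The part of GC content in the result was not tested. For exon length r was −0.171 and rho −0.336 over the members, and removing a trend on length over all genes gave 42 members higher and 4 lower. Over all genes it gave 5812 higher and 4670 lower.

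**Figure D5:**
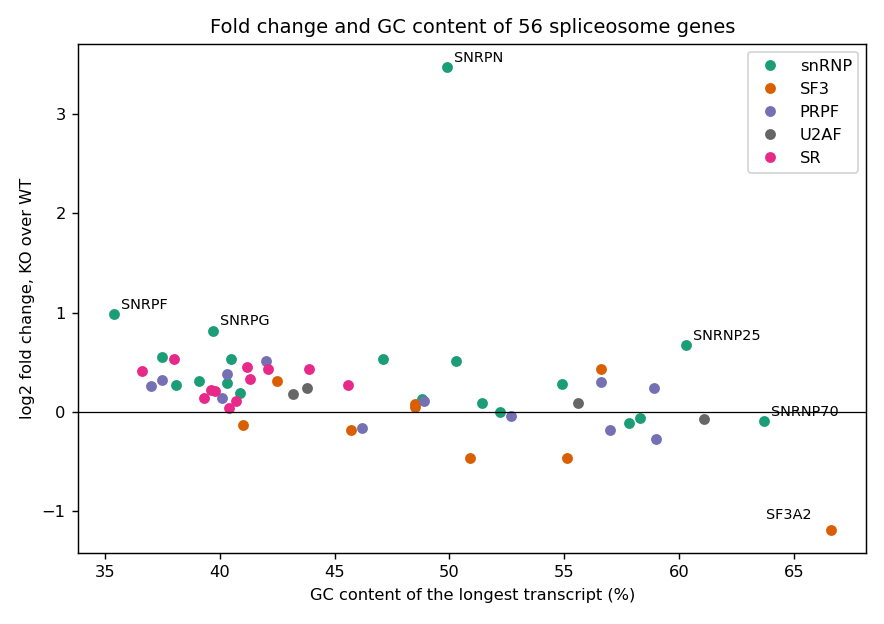
GC content of the longest annotated transcript (percent) against the log2foldchange (KO/WT) of 56 of the 57 members, coloured by family. SR genes crowd at the left between 36.6% and 45.6% GC, above 0, and SF3A2 is the point at the lower right with 66.6%.

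Around the members, 152 other genes of splicing were listed in 11 groups. Of these 76 were higher in KO, 34 lower and 42 not called, and their median log2foldchange was 0.10. Of 8 LSM genes, which include LSM1 of the cytoplasmic ring, 6 (75.0%) rose and 1 (12.5%) fell, with LSM5 at 0.79 and LSM8 at −0.25. LSM4 was the most abundant of them, at 0.16. Of 19 genes of snRNP assembly and import 14 (73.7%) rose and 0 fell. GEMIN5, the snRNA-binding subunit of the SMN complex, had 1972, 1985 and 1938 normalized counts in KO and 940, 863 and 906 in WT, a log2foldchange of 1.12 (adjusted p = 1.2e-12 from limma). CLNS1A, the pICln chaperone of Sm proteins, was the most abundant of them and had a log2foldchange of −0.08 (adjusted p = 0.093 from limma, and 0.0304 without WT3).

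Among further proteins of the same particles more genes rose than fell, beside 30.3% higher and 30.3% lower of all genes tested. Of 9 other U5 and tri-snRNP genes 5 (55.6%) rose and 2 (22.2%) fell, with PPIH, the cyclophilin bound to PRPF4, at 1.06 and SART1 at −0.26. PPIH had 10878, 11295 and 10492 normalized counts in KO and 5301, 5647 and 4778 in WT, with no overlap between the groups. Of 12 other genes of the 17S U2 snRNP 9 (75.0%) rose, led by U2SURP at 0.59, and 1 (8.33%) fell, RBM10 at −0.34. Of 9 other genes of the minor spliceosome 4 (44.4%) rose and 2 (22.2%) fell, with ZCRB1 at 0.45 and ZMAT5 at −0.42. These shares rest on few genes.

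The factors that drive catalysis or regulate it had other balances, some of them near the 30.3% higher and 30.3% lower of all genes tested. Among 7 splicing ATPases that stand in no other group 5 fell and 1 rose, with DDX17 at −0.57 and DDX41 at 0.23. Of the ATPases counted with other groups, DDX46 at 0.55 and EIF4A3 at 0.13 rose, while DDX23, DHX15 and AQR were not called, so that the balance depends on where these genes are placed. Of 18 genes of the Prp19 complex and related proteins 4 (22.2%) rose, with PPIL1 at 0.66, and 5 (27.8%) fell, with XAB2 at −0.30. The 9 exon junction complex genes gave 5 higher and 2 lower, with MAGOH at 0.32, CASC3 at −0.48 and PNN, the most abundant, at 0.10, which was not called without KO1, KO2, KO3 or WT1 (adjusted p of up to 0.154 from limma). Among the kinases and the phosphatase of SR proteins 4 of 9 rose and 3 fell, with SRPK2 at 0.51, CLK3 at −0.53 and PPP1CA at 0.15, which was not called without KO1 or WT3 (adjusted p = 0.0734 and 0.073 from limma). Of 23 SR-related genes 13 rose, with RSRC1 at 0.81 and the abundant SRRM2 at 0.25, and 5 fell, with SCAF1 at −0.50. The 29 hnRNP genes, which often oppose SR proteins at exons, gave 11 higher (37.9%), 8 lower (27.6%) and 10 not called. These shares lay near those over all genes tested. PCBP1 was at −0.96, and HNRNPA1, the most abundant, had 100537, 102786 and 102044 normalized counts in KO and 144690, 144206 and 141807 in WT, a log2foldchange of −0.50 (adjusted p = 6.0e-08 from limma).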

How the data were processed

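RNA of HL60 cells was sequenced in 3 akirin2 KO and 3 WT libraries. GRCh38 is the build in the submitters' notes on processing, which also list DESeq2, featureCounts, Subread 1.5.2 and Trimmomatic 0.36. The sources used here give no aligner, annotation or use of strand, so reads of overlapping genes cannot be told apart. For 17499 genes the authors deposited signal values, which are counts over a size factor, and 100% of them were whole reads within 0.01. The deposited table also holds log2 fold changes, p-values and adjusted p-values of the authors' own comparison, which were not used.

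From these values log2(normalized count + 1) was tested with limma 3.58.1 (trend of the variance on the mean, two-sided, Benjamini-Hochberg adjustment) over 17425 genes with a mean of at least 10, without the other 74. On this scale the fold changes of low genes come out too small. The steps were tested on simulated data. GENCODE 29 was matched to 17420 genes by identifier and gave coordinates, exon lengths and shared 50-base stretches. Promoter windows came from RefSeq for 48 members (60 windows), matched by symbol. Members and lists were chosen with earlier results of these data known, and roles and motifs after values were seen. A few genes are not reported here by name and are counted only in totals. Values in every library were given for the 2 largest rises, the 2 largest falls and the 2 highest counts of each family, for SNRNP70, SF3A1 and AKIRIN2, and for others where useful. Of each pathway list the largest rise, the largest fall and the highest count were named. Alternatives were pseudocounts of 0.5 and 5, no minimum and a minimum of 50, equal library totals, TMM scaling, DESeq2 1.42.0, edgeR 4.0.16, no variance trend, an ordinary linear model, a replicate block, removal of a length trend, and each library, or WT1 and KO3 together, left out. Work was done in R 4.3.3 and in Python 3.11.15 with numpy 2.4.6, pandas 2.3.3 and matplotlib 3.10.9.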

Additional observations from a re-analysis of the deposited data

How the results depend on the processing

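No called member reversed its direction in any of 19 alternatives, and 33 of the 44 called members were called in all 19, while 19 of 57 members had a call that changed in at least 1. The 36 higher members became 30 with an ordinary linear model, 32 with no variance trend and 35 with DESeq2. They became 38 with edgeR and 42 with the length trend removed, where the 8 lower became 4. Over all genes, 5277 higher and 5275 lower became 4461 and 4299 with an ordinary linear model. They became 4822 and 4804 with no variance trend and 4935 and 4925 with DESeq2. With edgeR they became 5496 and 5115, and with the length trend removed 5812 and 4670. Against a median log2foldchange of 0.24 over all members, TMM scaling gave 0.256, equal library totals 0.295 and removal of the length trend 0.311. Leaving out 1 library gave 0.21 to 0.234. Over all genes the median was −0.0066 in the main fit and 0.0119 with TMM scaling. It was 0.0503 with equal library totals and 0.0399 with the length trend removed. SNRPB, the 1 lower snRNP gene, was not called (0 lower) with equal library totals, edgeR, no variance trend, an ordinary linear model or the length trend removed, and leaving out 1 library gave 0 to 1. Higher SF3 genes went from 2 to 4 with equal library totals and with the length trend removed. Lower PRPF genes went from 2 to 1 without WT1 and KO3 and to 0 with the length trend removed. Higher U2AF genes went from 1 to 2 with equal library totals, 0 with an ordinary linear model and 3 with the length trend removed, and leaving out 1 library gave 0 to 2. The cause of these shifts was not tested. Same-numbered KO and WT libraries did not deviate together (correlations of −0.073, 0.052 and −0.075), and a replicate block lost 3 member calls and gained 0, leaving 0 lower snRNP genes. With 3 libraries per group, small differences such as that of SNRNP200 were not detectable, which does not show that they are absent.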

Other observations

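The deposited table lists 7 genes whose names mark them as pseudogene copies of members, and these were left out of the counts. SNRPGP10, a processed copy of SNRPG, had 739, 783 and 725 normalized counts in KO and 515, 481 and 382 in WT, a log2foldchange of 0.71 (adjusted p = 1.3e-06 from limma), close to the 0.82 of SNRPG itself. SNRPGP2 was higher by 0.54, SNRPEP4 by 0.63, SRSF9P1 by 0.58 and SRSF10P1 by 1.38, all called, while SNRPGP14 at 0.80 and SNRPGP15 at 0.44 did not pass the test. SNRPG shares 3.4% of its 50-base stretches with SNRPGP10 and SNRPE shares 8.6% with SNRPEP4, so that reads of the parent genes may be counted in these copies. How many were was not tested.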
